A study of Mus musculus with 6 samples.

Results

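The 41 genes described here encode the protein-folding, quality-control and disposal machinery of the endoplasmic reticulum (ER) and sensors of ER stress. They were taken by gene symbol from a given list, and each matched 1 row of a table of 26359 genes and loci. Of these genes, 24 serve ER folding and translocation, 13 serve ER-associated degradation (ERAD), which returns misfolded proteins to the cytosol for destruction by the proteasome, and 4 belong to the ATF6 and IRE1 branches of the unfolded protein response (UPR). The libraries came from AML12 cells, a non-tumorigenic hepatocyte line from mice carrying a transgene for human TGF-alpha. Poly(A) RNA was sequenced in 3 libraries labelled sh-NC and 3 labelled sh-1, with no treatment or time point given for either group. The series describes stable AML12 lines made to lower or raise TM9SF1, a membrane protein of the endosome and Golgi apparatus, in a study of liver ischemia-reperfusion. The labels do not name the hairpin's target, do not say whether a line is 1 clone, and give the sh-1 libraries titles that begin with Sh-2 and the controls titles that carry only the name AML12, and whether a hairpin was present in the controls is not clear from them.

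In the ER lumen, newly made proteins enter through the Sec61 channel, are bound by the Hsp70 chaperone BiP or by the lectins calnexin and calreticulin, and receive their disulfide bonds from protein disulfide isomerases. When misfolded proteins accumulate, the membrane sensors IRE1, ATF6 and PERK start the UPR. IRE1 splices the mRNA of the transcription factor XBP1, ATF6 is cut by proteases of the Golgi apparatus to release a transcription factor, and both raise the transcription of chaperone and ERAD genes. Hepatocytes make much of the protein of blood plasma and hold an extensive ER. Counts per gene do not measure Xbp1 splicing or ATF6 cleavage.

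Library totals ran from 36997329 to 51334798 counts. Tm9sf1, the gene that the series set out to lower, measured 47.2, 53.4 and 45.8 CPM in sh-NC and 35.3, 36.8 and 36.5 CPM in sh-1 (CPM, counts scaled to library size with TMM factors), a change of -0.43 on the log2 scale (SE 0.097, edgeR adjusted p = 0.00186). Log2 fold changes were lower for transcripts of higher GC content, with a Spearman's rho of -0.50 across 11956 genes, which share their libraries and are not independent. Many results are therefore also given from a fit that removes every library's trend along GC content and transcript length, called the GC-corrected value, in which Tm9sf1 was at -0.091 (adjusted p = 0.358). The hepatocyte marker genes were unevenly expressed. Group means were at least 2825 CPM for Krt8 and Krt18, and 149.9 (sh-NC) and 337 CPM (sh-1) for Hnf4a. The secreted proteins were uneven as well, with group means of at most 4.43 CPM for Alb, Ttr and Apoa1. Trf, also secreted, averaged 230.8 CPM over the controls and 188 CPM over the sh-1 libraries. Of 9 tested genes of the 10 hepatocyte markers, 6 were lower and 1 was higher in sh-1, where 32.2% and 33.3% of all genes were called. The falls of Trf, Foxa3 and Krt8 were not called after the GC correction. The list's summed level was 9816 to 12069 CPM in sh-NC and 6701 to 8344 CPM in sh-1. The summed level of 6 fibroblast or stellate markers was at most 2.97 CPM and that of 4 endothelial markers at most 2.23 CPM. The 5 leukocyte markers summed to 164 to 184 CPM, nearly all of it from Cd14, and the 4 cholangiocyte markers to 1663 to 1897 CPM in sh-NC and 1412 to 1598 CPM in sh-1, with Epcam at most 0.291 CPM. Among those tested, 2 of 3 cholangiocyte markers were lower, 1 of 2 fibroblast and 1 of 3 leukocyte markers were higher, and of 2 endothelial markers 1 was lower and 1 higher. In the GC-corrected fit the cholangiocyte marker Krt19 (0.60) and Cd14 (0.25) were also called higher. No marker was at 0 in all 6 libraries. The part of these markers in the results below was not tested.

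Most genes of the ER machinery were lower in sh-1, among them BiP, its cofactor Hyou1, calreticulin and the ERAD ligase Syvn1, while a smaller set that included the ATPase Vcp, the lectin Erlec1 and the reductase Dnajc10 was higher. Of 40 members tested, 26 (65%) were lower and 8 (20%) were higher in sh-1 at an edgeR adjusted p under 0.05, and 6 did not pass. Over all 13197 genes tested, 32.2% were lower and 33.3% were higher. Without sh-NC replicate 2, without sh-NC replicate 3 or without sh-1 replicate 2, the count of higher members was 5. The median log2 fold change of the members was -0.41, and that of all genes was -0.00065. The remaining member, Derl3, had 0 to 1 counts in the sh-NC libraries and 1 to 4 counts in the sh-1 libraries and was not tested. In TMM-scaled CPM, 27 members had every sh-1 library below every sh-NC library and 8 had the reverse, against 35.1% and 35.2% of all genes. A fall of at least 2-fold was called in 7 members and a rise of that size in 2, against 12.6% and 17.1% of all genes.

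**Figure D1:**
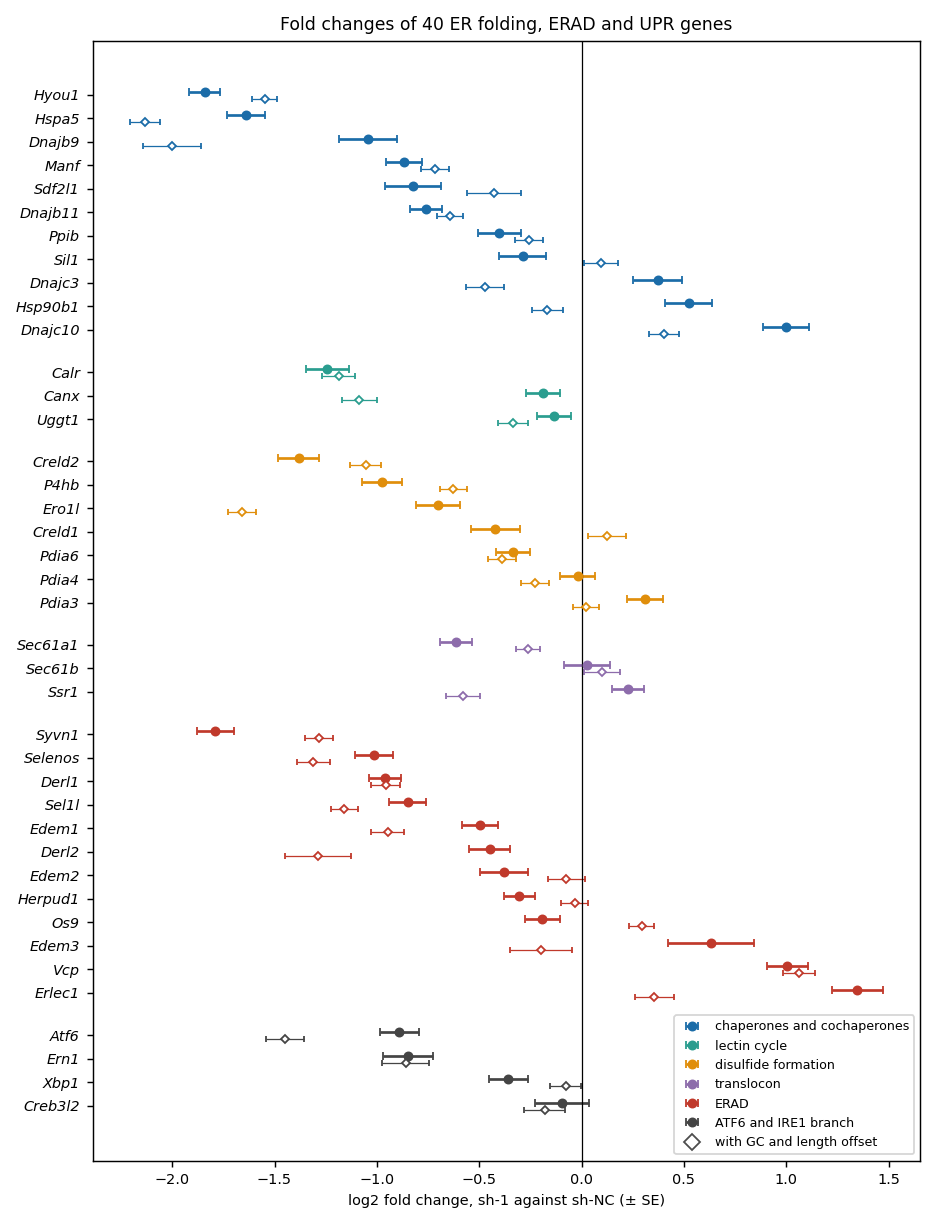
Log2 fold change of sh-1 against sh-NC (horizontal axis) for the 40 tested members, grouped by role. Filled circles are the edgeR values and open diamonds the GC-corrected values, and bars are SE; Hyou1, Syvn1 and Hspa5 lie farthest to the left among the filled circles, and Erlec1, Vcp and Dnajc10 farthest to the right.

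The GC-corrected fit gave the same number of falls and fewer rises. It called 26 members lower and 4 higher, where 34.8% and 32.9% of the 11956 genes it covered were called. Of the 26 falls 21 were called lower in both fits, and of the 8 rises only those of Dnajc10, Erlec1 and Vcp were called higher in both. Over all genes, 2982 of 4253 falls and 2895 of 4395 rises were called in the same direction in both fits. These totals include genes that the GC-corrected fit did not cover. Calls in opposite directions were given to 2 members and to 373 of all genes. The rises of Dnajc3 and Ssr1 turned into falls, and those of Hsp90b1, Pdia3 and Edem3 did not pass. Transcripts of the 8 members called higher had a GC content of 40.4 to 49.8% (median 44.2%), and those of the 26 called lower 40.6 to 58.2% (median 50.8%). Genes with nearly the GC content of Hspa5 (within 1 percentage point, 1123 genes) had a median log2 fold change of 0.41, where Hspa5 itself was at -1.64. Around Hsp90b1 that median was 0.71 and around Edem3 0.74, both above the values of these members (0.52 and 0.63).

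**Figure D2:**
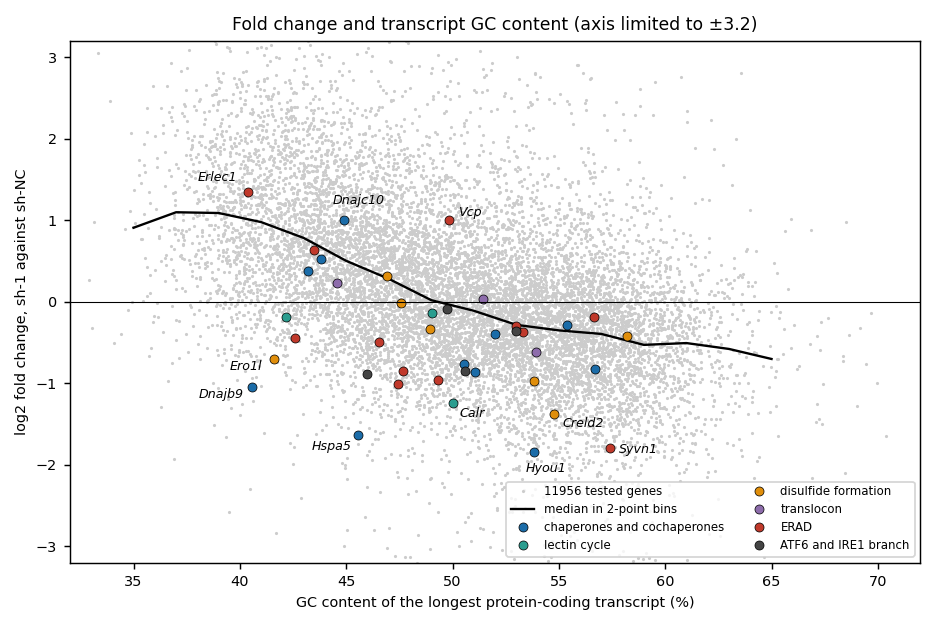
Log2 fold change of sh-1 against sh-NC plotted against the GC content (%) of the longest protein-coding transcript, for all genes with both values (grey) and the 40 tested members (coloured by role). The black line is the median of all genes in bins of 2 percentage points with at least 20 genes; most members lie below it, and Vcp lies well above it at a GC content of 49.8%.

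Measured per transcript length, the mRNA of the ER machinery was dominated by that of a few luminal proteins. Its summed level was lower in sh-1. FPKM (fragments scaled to transcript length and library size, as deposited) of the 41 genes summed to 3651 to 3754 in the sh-NC libraries and 2320 to 2507 in the sh-1 libraries, a ratio of 0.654 between the means. The 3 genes with the highest FPKM in sh-NC, Calr, P4hb and Ppib, made up 49.5% of that sum, and in sh-1 they made up 41.8%. The summed FPKM of the lectin group was 0.503 of its sh-NC value, that of the chaperones 0.629 and that of the disulfide group 0.674. The sums of the translocon and ERAD groups were 0.83 and 0.843 of theirs. These sums weigh their highest genes most and do not show a fall shared by all genes of a group. In the lectin group Calr made up 723 of 839 FPKM in sh-NC, and Canx went only from 106 to 93.0. Within the ERAD sum Vcp rose from 51.0 to 106.8 FPKM. In these bulk libraries, fewer cells that express a gene and less of its RNA per cell cannot be told apart.

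**Figure D3:**
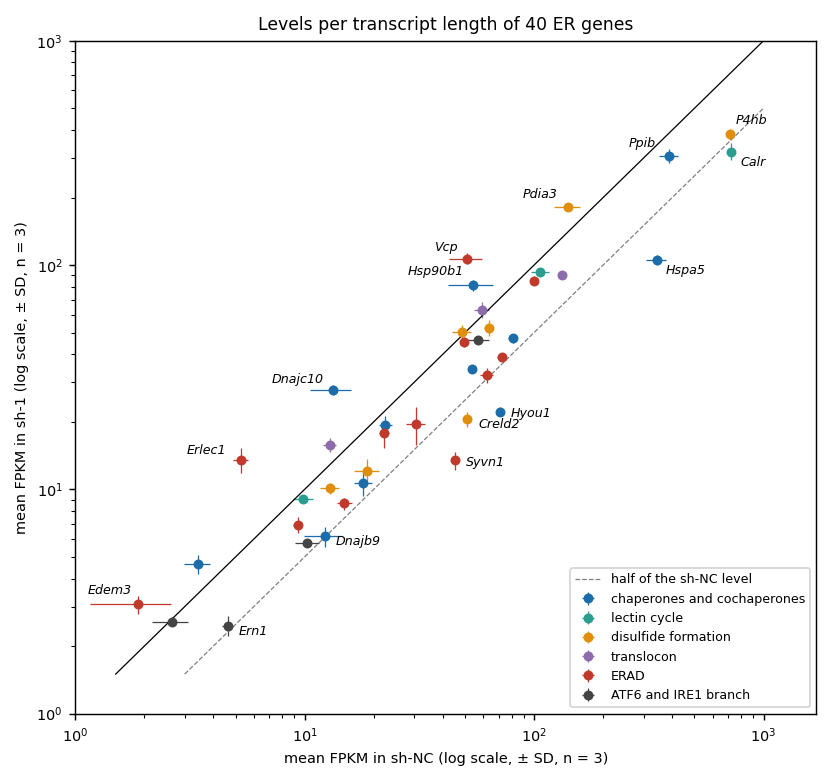
Mean FPKM of each tested member in sh-NC (horizontal, log scale) and sh-1 (vertical, log scale), with SD over 3 libraries. The solid line marks equal levels and the dashed line 0.5 of the sh-NC level; Hspa5, Hyou1, Creld2, Calr and Syvn1 lie below the dashed line, and Vcp, Erlec1 and Dnajc10 lie above the solid line.

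Among the 11 chaperones and cochaperones, 8 fell and 3 rose, where 32.2% and 33.3% of all genes were called. The GC-corrected fit called 8 lower and 1 higher, against 34.8% and 32.9% of the genes it covered. Hspa5 (chr2:34771970-34777547 on GRCm38), which encodes BiP, measured 1117, 958 and 977 CPM in sh-NC and 338, 323 and 319 CPM in sh-1. Every sh-1 library was far below every control (1018 ± 87.0 CPM to 326 ± 10.5 CPM, SD, n = 3 each; log2 fold change of -1.64 with SE 0.091, adjusted p = 3.06e-08). Hyou1 (chr9:44379490-44392369), whose product GRP170 exchanges the nucleotide on BiP, measured 317, 312 and 327 CPM in sh-NC and 90.2, 89.3 and 87.3 CPM in sh-1. Without the GC correction it had the largest fall of the 40 tested members, and the groups lay far apart (log2 fold change of -1.84 with SE 0.075, adjusted p = 6.29e-09). The GC-corrected values were -2.13 for Hspa5, then the largest fall of the members, and -1.55 for Hyou1. Sil1, the other nucleotide exchange factor of BiP on the list, measured 36.3, 42.2 and 43.6 CPM in sh-NC and 36.3, 34.3 and 29.3 CPM in sh-1, so the groups overlapped. Its small fall (log2 fold change of -0.29 with SE 0.12, adjusted p = 0.0425) did not pass without sh-NC replicate 2 or 3 or without sh-1 replicate 2 or 3 (adjusted p = 0.0908 to 0.199), nor with upper quartile scaling, library totals alone or no filter on low counts (adjusted p = 0.111, 0.131 and 0.0509), and its GC-corrected value was 0.095.

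The J-domain partners of BiP, which bring it clients and start its ATP cycle, moved in both directions. Dnajb9, which encodes ERdj4 and is a classical target of XBP1, measured 36.5, 26.4 and 32.9 CPM in sh-NC and 17.6, 14.0 and 14.9 CPM in sh-1 and fell by more than the other J-domain genes (log2 fold change of -1.04 with SE 0.14, adjusted p = 3.69e-05). Dnajb11, which encodes the abundant ERdj3, fell from 111 ± 1.04 CPM to 65.3 ± 1.36 CPM (log2 fold change of -0.76 with SE 0.077, adjusted p = 3.00e-06). Dnajc10, which encodes the disulfide reductase ERdj5, measured 67.8, 49.1 and 54.0 CPM in sh-NC and 109.9, 114 and 117 CPM in sh-1, with all sh-1 libraries above all controls. It rose just under 2-fold (log2 fold change of 1.00 with SE 0.11, adjusted p = 7.22e-06), and its GC-corrected value was 0.40 (adjusted p = 0.000240). Dnajc3, which encodes p58IPK, rose slightly (log2 fold change of 0.37 with SE 0.12, adjusted p = 0.0169), was at -0.47 after the GC correction (adjusted p = 0.000503) and did not pass without sh-NC replicate 2, sh-NC replicate 3 or sh-1 replicate 2 (adjusted p = 0.0717, 0.0608 and 0.069).

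Hsp90b1 (chr10:86690209-86705509), which encodes the Hsp90 chaperone GRP94, was called in the opposite direction from Hspa5. It measured 197, 143 and 146 CPM in sh-NC and 224, 232 and 242 CPM in sh-1. The lowest sh-1 library was above the highest control, which was sh-NC replicate 1 (log2 fold change of 0.52 with SE 0.11, adjusted p = 0.00144). After the GC correction it was at -0.17 (adjusted p = 0.0647), so neither a rise nor a fall was called there. The transcripts of Hspa5 and Hsp90b1 have GC contents of 45.6 and 43.8%. The ratio of their FPKM within a library, for a pair chosen like those below after the values were seen and so given with no test, was 5.63, 6.94 and 6.76 in sh-NC and 1.40, 1.34 and 1.17 in sh-1. Per transcript length, BiP mRNA exceeded GRP94 mRNA in every library, and by less in every sh-1 library than in any control.

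The last 3 of this group fell. Manf, which encodes a secreted BiP-binding protein that ER stress induces, fell from 190.5 ± 14.5 CPM to 104 ± 6.72 CPM (log2 fold change of -0.87 with SE 0.086, adjusted p = 2.60e-06). Its exons overlap those of Rbm15b on the same strand, which measured 110 and 57.9 CPM without TMM scaling, and those of Dcaf1 on the other strand (23.5 and 49.9 CPM). How the authors' counting divided shared reads is not given in the sources used here. Sdf2l1, a partner of ERdj3, fell from 21.3 ± 1.52 CPM to 12.02 ± 1.48 CPM (log2 fold change of -0.82 with SE 0.14, adjusted p = 0.000198), and Ppib, which encodes the prolyl isomerase cyclophilin B, from 368 ± 46.3 CPM to 279 ± 26.6 CPM (log2 fold change of -0.40 with SE 0.11, adjusted p = 0.00491). The GC-corrected fit also called Manf, Sdf2l1, Ppib, Dnajb9 and Dnajb11 lower.

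**Figure D4:**
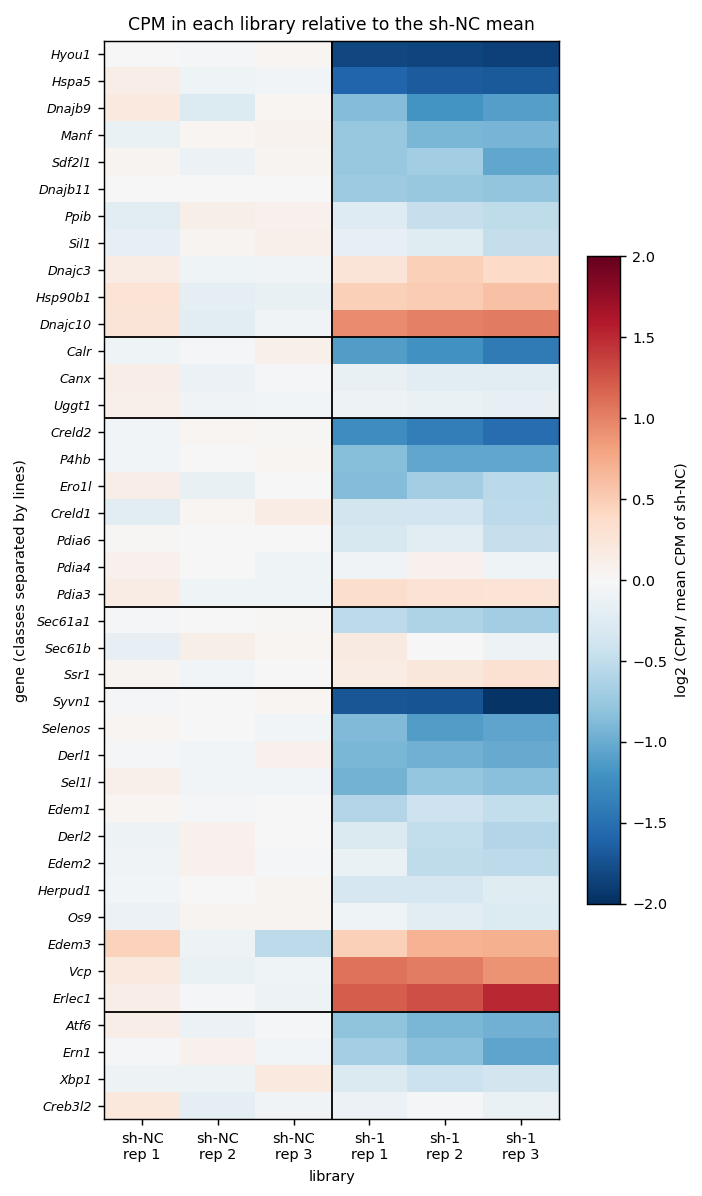
CPM of each tested member in each library, as log2 of its ratio to the sh-NC mean (colour, blue lower and red higher), with roles separated by horizontal lines. The sh-1 libraries are blue for most rows, with Hyou1, Hspa5 and Syvn1 the darkest, and red for Dnajc10, Vcp and Erlec1. The controls differ among themselves most in Edem3, and less in genes such as Hsp90b1, Dnajc10 and Dnajb9.

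The ER stress element, a site at which ATF6 binds together with NF-Y, was found in the promoters of 9 members, of which 5 were called lower and 2 higher before the GC correction. After the correction those 5 were still called lower, Canx and Dnajc3 were called lower as well, and Hsp90b1 did not pass. No carrier was then called higher. Of all 40 members tested, 26 were called lower and 8 higher before the correction, and 26 and 4 after it. Over all genes 32.2% and 33.3% were called before it, and 34.8% and 32.9% of those covered after it. The element was searched as CCAAT and CCACG with 9 bases of any kind between them. Both strands were searched from 250 bases before to 50 bases after each RefSeq start (GRCm38.p6). Of 41 members 34 had such a window, and 9 of these (26.5%) held a match. Counted by window, 9 of the members' 35 windows held one, against 39 of all 32851 windows (0.119%). The members were listed for their ER and UPR roles, so this difference is descriptive and was not tested. Atf6, Derl1, Erlec1, Hyou1, Manf, Sec61a1 and Sil1 had no window to search. The matches are shown to compare the element between members with different calls before the GC correction, given in parentheses. They are read in the direction of the element, with the fixed letters in capitals and the spacer in lower case.
Hspa5 (fell): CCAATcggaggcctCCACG
Syvn1 (fell): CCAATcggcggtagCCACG
Creld2 (fell): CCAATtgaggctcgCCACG
Calr (fell): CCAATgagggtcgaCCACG
Pdia6 (fell): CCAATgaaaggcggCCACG
Canx (did not pass): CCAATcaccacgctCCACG
Hsp90b1, farther site (rose): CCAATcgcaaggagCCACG
Hsp90b1, nearer site (rose): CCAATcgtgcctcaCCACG
Dnajc3 (rose): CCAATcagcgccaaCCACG
Derl3 (not tested): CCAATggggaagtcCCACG

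Of the 20 called-lower members with a window 5 held the element, and of the 7 called higher 2 did. These calls are those without the GC correction, and neither rise was called with it. The element began between 44 bases (Syvn1) and 212 bases (the farther site of Hsp90b1) before the start. A related element, ERSE-II, searched as ATTGG and CCACG with 1 base between them on both strands, was found in 2 members, Herpud1 and Dnajb11, and in 12 of all windows (0.0365%). Both members fell. The XBP1-type core TGACGTGG, searched on both strands, was found in 1 member, Vcp, and in 0.676% of all windows. A match is a run of letters and does not show that a factor was bound there.

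The promoters of Hspa5 and Hsp90b1 are printed because both carry the element and their mRNAs had different calls. Each line gives the 250 bases before the RefSeq start, in the gene's direction, with the fixed letters of the element in capitals, and where a site lies against the gene its letters appear as the reverse complement.
Hspa5, chr2:34771840-34772089 (+ strand): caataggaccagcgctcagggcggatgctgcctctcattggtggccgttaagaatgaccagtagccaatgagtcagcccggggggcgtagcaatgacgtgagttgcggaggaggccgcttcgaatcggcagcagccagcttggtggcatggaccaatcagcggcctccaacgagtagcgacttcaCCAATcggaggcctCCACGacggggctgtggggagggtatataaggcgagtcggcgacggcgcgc
Hsp90b1, chr10:86705445-86705694 (- strand): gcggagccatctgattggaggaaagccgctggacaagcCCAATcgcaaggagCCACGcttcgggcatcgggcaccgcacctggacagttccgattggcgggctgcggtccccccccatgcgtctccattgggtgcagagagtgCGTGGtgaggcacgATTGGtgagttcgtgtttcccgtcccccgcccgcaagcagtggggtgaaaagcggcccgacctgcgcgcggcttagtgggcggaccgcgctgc

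In the lectin cycle, which holds glycoproteins in the ER until they are folded, calreticulin fell and its membrane-bound relative calnexin did not pass. Calr (chr8:84841850-84846934), the soluble lectin, measured 1595, 1657 and 1800.4 CPM in sh-NC and 778, 724 and 635 CPM in sh-1. The sh-1 libraries were all below 0.5 of the lowest control (log2 fold change of -1.24 with SE 0.10, adjusted p = 5.88e-07, -1.19 after the GC correction). Canx measured 488, 412 and 435 CPM in sh-NC and 401, 386 and 384 CPM in sh-1, and its log2 fold change was -0.19 (95% interval -0.37 to -0.0027, adjusted p = 0.0694). After the GC correction Canx was called lower at -1.09 (adjusted p = 1.14e-07). Its transcript has a GC content of 42.2%, and before the correction the median of genes within 1 percentage point of it was 0.86. The FPKM ratio of Calr to Canx was 6.07, 7.10 and 7.37 in sh-NC and 3.64, 3.56 and 3.14 in sh-1. Uggt1, which encodes the folding sensor that sends glycoproteins back to these lectins, was at -0.14 (95% interval -0.32 to 0.044, adjusted p = 0.168) and at -0.33 after the correction (adjusted p = 0.000980).

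Of the 7 genes of disulfide formation, 5 fell, 1 rose and 1 did not pass, where 32.2% of all genes were lower and 33.3% higher. The GC-corrected fit called 5 lower and 0 higher, against 34.8% and 32.9% of the genes it covered. P4hb (chr11:120560298-120573253), which encodes protein disulfide isomerase and had the highest CPM of the members, measured 2116, 2207 and 2234 CPM in sh-NC and 1212, 1065 and 1059 CPM in sh-1, with no overlap between the groups (log2 fold change of -0.98 with SE 0.096, adjusted p = 2.42e-06). Ero1l, the oxidase that reoxidises it, fell from 87.9 ± 8.69 CPM to 54.1 ± 6.08 CPM (log2 fold change of -0.70 with SE 0.11, adjusted p = 9.67e-05, -1.66 after the GC correction). Creld2, an ER-stress-induced protein with disulfide isomerase activity, measured 71.4, 76.05 and 75.8 CPM in sh-NC and 31.3, 28.4 and 25.9 CPM in sh-1, the largest fall of this group without the GC correction (log2 fold change of -1.38 with SE 0.099, adjusted p = 1.79e-07). After the correction Creld2 was at -1.05, and Ero1l was lower. Pdia3, which encodes the isomerase ERp57 that works with calnexin and calreticulin, rose from 413 ± 38.9 CPM to 511 ± 15.5 CPM (log2 fold change of 0.31 with SE 0.088, adjusted p = 0.00803) but was at 0.02 after the correction (adjusted p = 0.794). Pdia6 fell by less (log2 fold change of -0.34 with SE 0.081, adjusted p = 0.00295), Creld1 fell (log2 fold change of -0.42 with SE 0.12, adjusted p = 0.00826) but was at 0.12 after the correction, and Pdia4 was at -0.02 (95% interval -0.20 to 0.16, adjusted p = 0.852) and was called lower after the correction (-0.23, adjusted p = 0.00925). The FPKM ratio of P4hb to Pdia3 was 4.48, 5.48 and 5.54 in sh-NC and 2.22, 2.04 and 2.05 in sh-1. The GC contents of this pair differ more (53.8 and 46.9%) than those of Hspa5 and Hsp90b1.

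The 3 translocon genes had no common direction. Sec61a1, which encodes the channel itself, measured 441, 443 and 456 CPM in sh-NC and 309, 292 and 275 CPM in sh-1 and fell without overlap (log2 fold change of -0.61 with SE 0.079, adjusted p = 2.28e-05). Sec61b, the small tail-anchored subunit, was at 0.027 (95% interval -0.22 to 0.27, adjusted p = 0.847). Ssr1, a subunit of the translocon-associated protein complex, rose slightly (log2 fold change of 0.23 with SE 0.078, adjusted p = 0.0215), did not pass without sh-NC replicate 2 or 3 or without sh-1 replicate 2 or 3 (adjusted p = 0.0512 to 0.0937), and was called lower after the GC correction (-0.58, adjusted p = 3.36e-05).

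Of the 12 ERAD members tested, 8 fell, among them Syvn1, Sel1l, Derl1 and Selenos, 3 rose, among them Vcp, and 1 did not pass. Over all genes 32.2% were lower and 33.3% higher. The GC-corrected fit called 6 of these members lower and 3 higher, where 34.8% and 32.9% of the genes it covered were called. Syvn1 (chr19:6046576-6053712), which encodes the ubiquitin ligase HRD1, measured 159.6, 163 and 167 CPM in sh-NC and 50.1, 49.6 and 41.9 CPM in sh-1. The sh-1 libraries were far below every control (log2 fold change of -1.79 with SE 0.091, adjusted p = 1.84e-08, -1.28 after the GC correction). Its exons overlap those of Mrpl49 on the other strand, which measured 184 and 142 CPM without TMM scaling, and whether counting used the strand is not given in the sources used here. Sel1l, the adaptor that holds the HRD1 complex together, measured 101, 89.7 and 90.2 CPM in sh-NC and 48.7, 54.6 and 52.5 CPM in sh-1, with no overlap (log2 fold change of -0.85 with SE 0.09, adjusted p = 4.47e-06). Selenos, a selenoprotein that anchors p97 to the ER membrane, fell from 77.8 ± 2.41 CPM to 38.5 ± 3.24 CPM (log2 fold change of -1.01 with SE 0.093, adjusted p = 1.32e-06). Vcp (chr4:42979963-43000507), which encodes p97, measured 206, 164 and 169 CPM in sh-NC and 382, 366 and 333 CPM in sh-1, with the lowest sh-1 library far above the highest control (log2 fold change of 1.00 with SE 0.10, adjusted p = 2.53e-06). Vcp was also called higher after the GC correction (1.06, adjusted p = 5.68e-08).

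The derlins, which form the channel-like part of the HRD1 complex, were lower where they were expressed. Derl1 measured 238, 234 and 260.0 CPM in sh-NC and 130.03, 125 and 121 CPM in sh-1 (log2 fold change of -0.96 with SE 0.078, adjusted p = 5.10e-07, -0.96 after the GC correction). Derl2 fell from 80.0 ± 5.07 CPM to 58.6 ± 6.42 CPM (log2 fold change of -0.45 with SE 0.10, adjusted p = 0.00167), was further below 0 after the correction (-1.29, adjusted p = 0.000111), and has exons that overlap those of Mis12 on the other strand (36.7 and 34.9 CPM without TMM scaling). Herpud1, a scaffold of the complex that ER stress induces strongly, fell slightly, from 203 ± 7.41 CPM to 164 ± 6.18 CPM (log2 fold change of -0.30 with SE 0.075, adjusted p = 0.00340), and was at -0.034 after the GC correction (adjusted p = 0.662).

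The glycan-reading part of ERAD was called differently among relatives. The EDEM proteins trim mannose to mark glycoproteins for disposal. Edem1 fell from 58.6 ± 1.32 CPM to 41.5 ± 2.35 CPM (log2 fold change of -0.50 with SE 0.089, adjusted p = 0.000353) and Edem2 from 54.0 ± 3.12 CPM to 41.5 ± 6.60 CPM (log2 fold change of -0.38 with SE 0.12, adjusted p = 0.0123), whereas Edem3 measured 17.4, 11.8 and 8.73 CPM in sh-NC and 17.6, 20.5 and 20.6 CPM in sh-1 and was called higher (log2 fold change of 0.63 with SE 0.21, adjusted p = 0.0186). The call of Edem3 did not pass without sh-NC replicate 2 or 3 or without sh-1 replicate 2 or 3 (adjusted p = 0.0517 to 0.0661), and that of Edem2 did not pass without sh-NC replicate 2 or without sh-1 replicate 2 or 3 (adjusted p = 0.0533 to 0.0736). After the GC correction Edem1, Edem2 and Edem3 were at -0.95, -0.075 and -0.20, of which only the fall of Edem1 passed. The lectins OS9 and XTP3-B, which present the trimmed glycoproteins to SEL1L, were a further such pair before the GC correction. In the GC-corrected fit the genes of both were called higher. Erlec1, which encodes XTP3-B, measured 14.6, 12.98 and 12.4 CPM in sh-NC and 31.0, 32.8 and 38.1 CPM in sh-1 and had the largest rise of the members without the GC correction (log2 fold change of 1.35 with SE 0.12, adjusted p = 1.32e-06), but was at 0.36 after it, below Vcp. Os9 was at -0.19 (95% interval -0.38 to -0.0065, adjusted p = 0.0646), passed as lower without sh-NC replicate 1 or without sh-1 replicate 1 (adjusted p = 0.0237 and 0.0271) and was called higher after the correction (0.29, adjusted p = 0.000758). The FPKM ratio of Os9 to Erlec1 was 8.42, 9.89 and 10.1 in sh-NC and 4.05, 3.37 and 2.82 in sh-1, and the GC contents of this pair are far apart (56.6 and 40.4%).

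**Figure D5:**
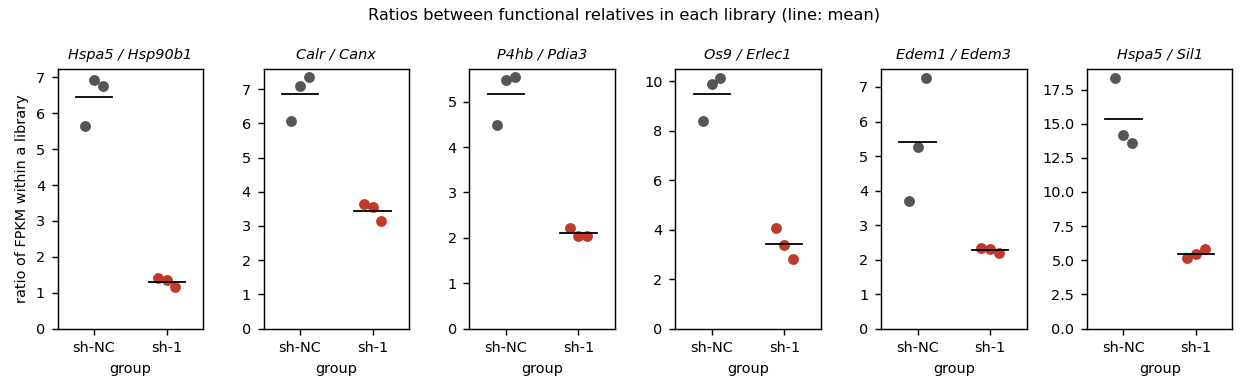
Ratio of FPKM between members of related function within each library (points, 1 per library, lines at the mean of 3), with pairs chosen after their values were seen. In all 6 panels the 3 sh-1 libraries lie below the 3 sh-NC libraries, from 6.44 to 1.303 on average for Hspa5 to Hsp90b1. These ratios have no GC correction.

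Both upstream sensors of these branches were lower. Atf6 (chr1:170704674-170867771) measured 86.8, 73.1 and 77.5 CPM in sh-NC and 45.1, 42.1 and 40.8 CPM in sh-1 (log2 fold change of -0.89 with SE 0.096, adjusted p = 4.91e-06, -1.45 after the GC correction). Ern1 (chr11:106394650-106487852), which encodes IRE1 alpha, measured 30.2, 32.6 and 29.8 CPM in sh-NC and 19.2, 17.2 and 14.9 CPM in sh-1 (log2 fold change of -0.85 with SE 0.12, adjusted p = 5.43e-05, -0.86 after the correction). In both genes every sh-1 library was below every control. Xbp1 measured 118, 118 and 145 CPM in sh-NC and 104, 94.2 and 98.9 CPM in sh-1, a smaller fall (log2 fold change of -0.36 with SE 0.096, adjusted p = 0.00564) that did not pass after the correction (-0.078, adjusted p = 0.385). Creb3l2, an ATF6-like factor cut in the Golgi apparatus, was at -0.094 (95% interval -0.38 to 0.19, adjusted p = 0.548), and the groups overlapped.

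Neighbouring genes of the same pathway were read from lists apart from the members. Among 10 tested genes for other ER stress transducers and their proteases, 6 were lower and 3 higher, with a median log2 fold change of -0.34, against 32.2% and 33.3% of all genes. In the GC-corrected fit 3 were lower and 4 higher, against 34.8% and 32.9% of the genes it covered. The median was 0.075, so the list had no direction that held in both fits. Eif2ak3, the gene of the sensor PERK, was at -0.78 (SE 0.12, adjusted p = 9.50e-05), Rtcb, which encodes the ligase that rejoins Xbp1 mRNA after the cut by IRE1, at -0.60, and Traf2, an adaptor of IRE1, at -0.68. The genes of the Golgi proteases that cut ATF6 were higher, Mbtps1 at 0.21 and Mbtps2 at 1.45 (0.43 and 0.41 after the GC correction), as was the low-expressed Creb3l1, from 0.512 ± 0.216 CPM to 3.36 ± 0.637 CPM (2.70). Of 14 PERK and integrated stress response targets 10 were lower and 3 higher (median -1.22), against 32.2% and 33.3% of all genes. After the GC correction 10 were lower and 2 higher (median -0.86), against 34.8% and 32.9% of the genes covered. Ppp1r15a, Atf4 and Sesn2 fell by 2.82, 1.48 and 1.72 on the log2 scale, and Vldlr, Cebpg and Ddit4 were at 1.11, 0.57 and 0.40. The GC-corrected values of Vldlr, Cebpg and Ddit4 were 0.25, -0.26 and 0.89.

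Of 30 other ERAD genes tested, 16 were lower and 8 higher, with a median of -0.31, where 32.2% and 33.3% of all genes were called. After the GC correction 17 were lower and 6 higher, with a median of -0.28, where 34.8% and 32.9% of the genes covered were called. Ube2g2, the ubiquitin-conjugating enzyme of ERAD, fell from 231 ± 24.3 CPM to 77.1 ± 11.2 CPM (log2 fold change of -1.58 with SE 0.11, adjusted p = 1.91e-07), and Aup1, which recruits it to the membrane, was at -0.87. The cofactors that form a heterodimer on p97 were called in opposite directions, Nploc4 at -0.76 and Ufd1 at 0.82 (-0.50 and 0.52 after the GC correction). Jkamp and Ngly1, the gene of the glycanase that strips extracted glycoproteins, were higher at 1.39 and 1.33, and after the correction at 1.02 and 0.50.

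Of 26 other folding and oxidation genes 9 were lower and 9 higher, with a median of -0.045, which is near the shares of all genes (32.2% and 33.3%). In the GC-corrected fit 12 were lower and 8 higher, with a median of -0.14, against 34.8% and 32.9% of the genes it covered. Ero1lb, the gene of the second ER oxidase, fell from 22.1 ± 0.877 CPM to 7.77 ± 1.80 CPM (log2 fold change of -1.51 with SE 0.17, adjusted p = 7.69e-06), the sulfhydryl oxidase gene Qsox1 was at -1.45 and the ER peroxiredoxin gene Prdx4 at -0.83. Ppic, which encodes cyclophilin C, rose from 19.6 ± 1.45 CPM to 69.4 ± 0.512 CPM (log2 fold change of 1.82 with SE 0.097, adjusted p = 2.22e-08), and Tmx3 and Tmx1, which encode membrane-bound thioredoxin-like proteins, were at 1.74 and 1.10 before the GC correction and at 0.52 and 0.15 after it.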

How the data were processed

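Per the submitters' processing notes, the authors used HISAT2, StringTie and the GRCm38 genome. The sources used here do not state tool versions, strandedness or the handling of shared reads. The deposited table holds whole-number counts and FPKM for each gene and library, per the file headers. The authors' own fold changes in it were not used here. Its 26359 rows with values were used, and 27 gene symbols stored as dates were restored. Groups follow the cell line label, and nothing states that the replicates are separate cultures, so p-values here cover only library-to-library spread, possibly technical.

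Counts were tested in R 4.3.3 with edgeR 4.0.16 (filterByExpr, TMM, robust glmQLFit and glmQLFTest on the group), two-sided, with Benjamini-Hochberg adjustment over 13197 genes and a threshold of 0.05. SE were derived from the F statistic. For GC-corrected values, an offset was made per library by regressing its log2 deviation from each gene's mean on natural splines, with 5 degrees of freedom for GC content and 4 for log2 length of the longest protein-coding transcript in GENCODE M21. It covered 11956 tested genes (90.6%) and also removes any true change shared by genes of like composition. Gene coordinates are those of GENCODE M21. Both edgeR fits, with and without the offset, were also run on simulated counts. DESeq2 1.42.0 was an alternative. Replicates of a group differed by more than sampling noise (chi-square per degree of freedom 13.9 to 48.1). In both groups replicates 2 and 3 were the closest pair (15.1 in sh-NC, 13.9 in sh-1). Pairs with replicate 1 were at 31.55 to 48.1.

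The members and lists were chosen with earlier results of these data known. All members are named, and from each other list the 3 genes of lowest adjusted p in each direction.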

Additional observations from a re-analysis of the deposited data

How the results depend on the processing

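The count of members called lower stayed between 24 and 28 under all 14 alternatives, and the DESeq2 Wald test and RLE size factors left every member's call and direction as it was. The 8 members called higher became 4 with the GC content and length offset, and 5 to 8 when 1 library was left out. Those of ER folding and translocation (5) became 1 with that offset and 3 to 5 when 1 library was left out. Fewer libraries were then tested, and members near the threshold (Sil1, Edem2, Ssr1, Dnajc3 and Edem3) lost their call.

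The titles share the numbers 2 and 3 between the groups, and libraries of the same number did not deviate together (correlations of 0.03 and -0.05). With that number as a replicate block, which leaves 1 residual degree of freedom, 6 members were higher, 3 of them in ER folding and translocation, and Sec61b was at -0.030. With the replicate block and the offset 3 members were higher, 1 of them in ER folding and translocation.

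Direction changed with the offset in Creld1 (0.12), Dnajc3 (-0.47), Edem3 (-0.20), Hsp90b1 (-0.17), Os9 (0.29), Sil1 (0.095) and Ssr1 (-0.58). With the replicate block added these were at 0.19, -0.49, -0.37, -0.24, 0.28, 0.089 and -0.56, and Herpud1 (0.017), Pdia3 (-0.036), Sec61b (-0.011) and Xbp1 (0.0018) also changed sign; the cause was not tested. Pdia4, at -0.02 in the fit as reported, was at 0.048 with upper quartile scaling and at 0.066 with library totals alone. Leaving out 1 library gave -0.066 to 0.026 for Pdia4, -0.047 to 0.096 for Sec61b and -0.17 to 0.029 for Creb3l2. Depth limited Derl3, which had at most 4 counts in a library.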

Other observations

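Of 29 other genes for the translocon, signal peptidase and oligosaccharyltransferase, all tested, 10 were lower and 12 higher, with a median log2 fold change of 0.14, and the shares over all genes were 32.2% and 33.3%. After the GC correction 15 were lower and 10 higher, against 34.8% and 32.9% of the genes covered. The median was -0.18, so the list as a whole had no direction that held in both fits. The signal peptidase, which cuts signal peptides from entering proteins, had accessory and catalytic subunits called in opposite directions. Spcs1 measured 24.8, 22.1 and 30.8 CPM in sh-NC and 106, 94.7 and 101 CPM in sh-1 (log2 fold change of 1.95 with SE 0.12, adjusted p = 6.76e-08), so every sh-1 library was more than 3-fold above every control. Spcs3 was likewise higher (log2 fold change of 1.72 with SE 0.15, adjusted p = 7.79e-07). The catalytic subunit Sec11a measured 118, 122 and 126 CPM in sh-NC and 88.6, 75.7 and 75.3 CPM in sh-1 (log2 fold change of -0.61 with SE 0.088, adjusted p = 5.93e-05), with no overlap, and its paralog Sec11c, named after its values were seen, was at -0.77. After the GC correction Spcs1, Spcs3, Sec11a and Sec11c were at 2.09, 0.71, -0.74 and -0.87. Sec63, a J-domain partner of BiP at the translocon, rose (1.25, 0.41 after the correction), while Ddost, a subunit of the oligosaccharyltransferase, and Srprb, a subunit of the signal recognition particle receptor, fell by 0.75 and 0.58 on the log2 scale.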
